A study of Mus musculus with 73 samples.

Results

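The 9 genes described here, *Acta2*, *Tagln*, *Myh11*, *Actg2*, *Cnn1*, *Myl9*, *Des*, *Tpm2* and *Mylk*, encode parts of the contractile apparatus of smooth muscle, and they were chosen by name and not by their values. All 9 were in the single-cell table of 21058 genes, and 7 of them had values in the laser capture microdissection (LCM) table of 20882 genes. *Acta2* and *Myh11* were not analysed in the LCM samples. The study compared the stroma of the mouse jejunum along the axis from the crypt, where the epithelium renews itself, to the tip of the villus. LCM gave 29 sections of stroma from 5 mice, with 6 sections of crypt from 3 mice and 8 of villus bottom, 7 of villus center and 8 of villus tip from 5 mice each. Single cells were sorted into plates from 8 mice, named A to H here. All these mice were untreated C57BL/6 males on regular chow, 3 months old per the labels, and none was a transgenic or disease model. Bulk epithelium of another strain, Lgr5(GFP-ires-DTR/+), 4 months old and taken 48 h after diphtheria toxin (4 mice) or vehicle (4 mice), entered only through its vehicle controls, which defined the enterocyte genes removed from the LCM values.

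Smooth muscle contracts when myosin II filaments pull on actin filaments. Calcium, through calmodulin, activates myosin light chain kinase, which phosphorylates the regulatory light chain of myosin, while calponin, transgelin and tropomyosin bind along the actin filament and desmin filaments tie the apparatus to the rest of the cell. In the gut wall such cells make up the muscle layers, the muscularis mucosae, the strands of muscle that run up the core of each villus and the walls of vessels, and myofibroblasts and pericytes share many of the same genes.

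The members were spread over the genome of the mouse (GRCm38), and all 9 are annotated as protein coding. The actins and the myosin parts are encoded at chr19:34241090-34255590 on the minus strand (*Acta2*, smooth muscle alpha-actin), chr6:83512905-83536265 on the minus strand (*Actg2*, smooth muscle gamma-actin of the gut), chr16:14194535-14291372 on the minus strand (*Myh11*, the smooth muscle myosin heavy chain), chr2:156775420-156781658 on the plus strand (*Myl9*, the regulatory light chain) and chr16:34745210-35002420 on the plus strand (*Mylk*, myosin light chain kinase). The proteins that bind actin or anchor it are encoded at chr9:45929619-45936058 on the minus strand (*Tagln*, transgelin), chr9:22099216-22109630 on the plus strand (*Cnn1*, calponin 1), chr4:43514711-43523765 on the minus strand (*Tpm2*, beta-tropomyosin) and chr1:75360329-75368579 on the plus strand (*Des*, desmin). The reads of the LCM libraries were 38 bases long, and of the words of that length in the coding gene models 19 of 2158 in *Acta2* and 50 of 6643 in *Myh11* also occurred in other genes. In *Actg2* this was 1 of 1580 words, and in the other 6 genes it was 0.

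Many smooth muscle genes carry a CArG box, the element that serum response factor binds, close to their start. RefSeq promoters (GRCm38, 250 bases before to 50 bases after the start) were found for 6 of the 9 genes, *Acta2*, *Cnn1*, *Myl9*, *Des*, *Tpm2* and *Mylk*, and were searched on both strands. The exact CArG box occurred in 1 of the 6, *Myl9*, and in 535 of all 32851 promoters of the same length (1.63%). A box that was exact or differed by 1 letter in its A/T core occurred in 2 of the 6, *Myl9* and *Acta2*, and in 3280 of all promoters (9.98%). The 4 matches are shown 5′ to 3′ on the strand of the gene with 10 bases on either side, because *Myl9* and *Acta2* were also the members detected in the most mesenchymal cells, and capitals mark the box.
Myl9, exact, chr2:156775293-156775322, plus strand, 161 to 152 bases before the start: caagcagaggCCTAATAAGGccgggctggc
Myl9, 1 letter off, chr2:156775355-156775384, plus strand, 99 to 90 bases before the start: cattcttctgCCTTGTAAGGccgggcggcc
Acta2, 1 letter off, chr19:34255438-34255467, minus strand, 84 to 75 bases before the start: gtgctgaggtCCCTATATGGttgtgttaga
Acta2, 1 letter off, chr19:34255388-34255417, minus strand, 34 to 25 bases before the start: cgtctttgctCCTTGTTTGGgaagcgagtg
The start meant here is that of the RefSeq promoter. It differs from the end of the gene span given above, and both *Acta2* stretches lie within that span. A match describes the letters in this window, and binding was not measured.

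Before the zones are compared, 2 of the 29 sections have to be set apart. LCM values are given in parts per 1000000 (ppm). They are TPM, in which reads are divided by transcript length, so that values follow the relative number of transcript copies. Enterocyte genes were taken out and each section was divided by its total over genes below 1% of it. The 7 measured members summed to 30671 ppm in section 1 of the villus center of mouse 1 and to 5097 ppm in the villus center of mouse 4. In the other 27 sections this sum ran from 71.0 to 894 ppm, with a median of 276 ppm. Section 1 of mouse 1 ranked first of the 29 sections for every measured member, and the section of mouse 4 ranked second for 6 of the 7, with rank 5 for *Actg2*. The first of these sections had a second section from the same zone of the same mouse, and all 7 members were higher in section 1. *Myl9* stood at 12137 ppm in section 1 and at 224 ppm in section 2, *Tpm2* at 6131 and 57.6 ppm, and *Actg2* at 5182 and 33.4 ppm. *Tagln* stood at 4276 and 295 ppm, *Cnn1* at 1235 and 17.4 ppm, *Mylk* at 955 and 122 ppm, and *Des* at 756 and 53.5 ppm. The median absolute log2 difference between these 2 sections was 5.75 over the members and 1.40 over all genes. In mouse 4, whose villus center is 1 section, *Tpm2* stood at 1868 ppm, *Myl9* at 1364 ppm and *Tagln* at 1025 ppm, above the highest values of the other 27 sections (192, 381 and 588 ppm).

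**Figure D1:**
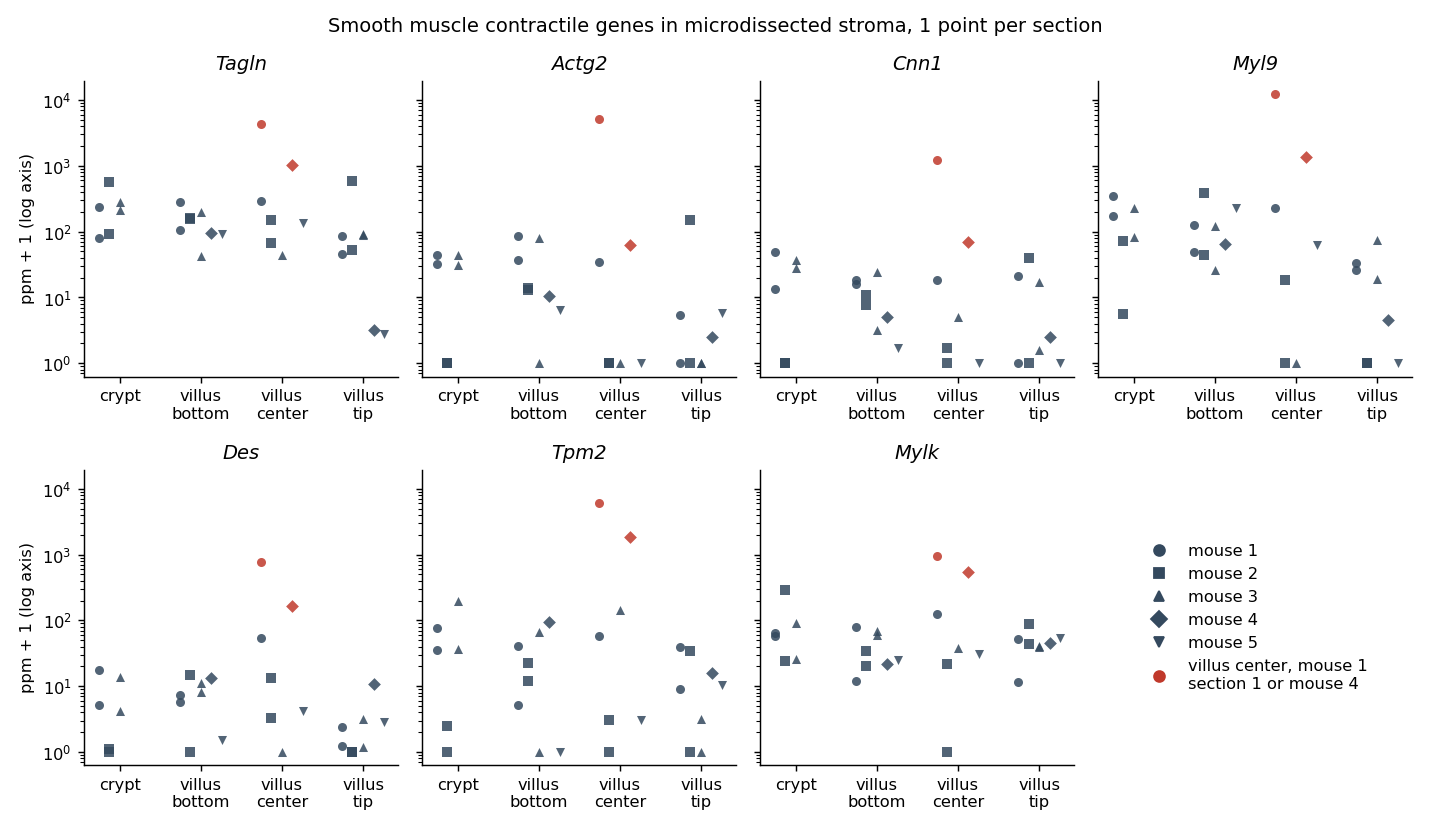
Level of the 7 measured contractile genes in each of the 29 microdissected sections (ppm + 1 on a log axis), by zone, with 1 symbol per mouse and 2 sections of the villus center in red. The red points are the highest 2 of each panel except for *Actg2*, and *Myl9* at the villus tip lies at 0 (drawn at 1) in mice 2 and 5.

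Some other markers moved with the members in these 2 sections, and others did not. The 5 other smooth muscle markers (*Smtn*, *Lmod1*, *Synpo2*, *Hhip*, *Pcp4*) summed to 4638 ppm in section 1 of mouse 1 and 544 ppm in mouse 4, against a median of 43.7 and a highest value of 416 ppm in the other sections. *Lmod1*, leiomodin of smooth muscle, was at 86.0 and 64.5 ppm there and at most 5.37 ppm elsewhere. *Synpo2* and *Pcp4* were also above the other sections in both. *Hhip*, at 52.2 and 0.653 ppm, was above them in neither, since it reached 373 ppm elsewhere. *Smtn* was above them in section 1 of mouse 1 but not in mouse 4, at 100 ppm against at most 196 ppm elsewhere. The markers of interstitial cells of Cajal (*Kit*, *Ano1*, *Etv1*), the pacemaker cells of the gut muscle, summed to 101 and 935 ppm against at most 73.9 ppm. In mouse 4 each of them was above all other sections. In section 1 of mouse 1 only *Etv1* was, at 59.9 against at most 45.6 ppm. *Kit*, at 22.5 ppm, and *Ano1*, at 18.2 ppm, lay within the other sections there. The 2 measured mesothelial markers (*Upk3b*, *Lrrn4*), of the cells that line the outer face of the gut, summed to 168 ppm in section 1 of mouse 1, to 0 in mouse 4 and to at most 6.91 ppm elsewhere. Pericyte markers summed to 468 and 863 ppm against at most 157 ppm. In mouse 4 this was almost all *Rgs5*, at 852 ppm, and *Notch3* and *Pdgfrb* were at 0 there. The 4 measured myofibroblast markers (*Emid1*, *Pdlim1*, *Aldh1a1*, *Bmp5*) summed to 246 and 14.4 ppm and lay within or below the range of the other sections, 44.1 to 1914 ppm. Endothelial markers were at 128 ppm in section 1 of mouse 1, below the 325 to 6134 ppm of the other sections. The 6 mesenchymal markers summed to 3259 ppm in that section, above the highest value elsewhere of 1138 ppm, and to 805 ppm in mouse 4. Immune markers were at 9.12 ppm in section 1 of mouse 1, below the 20.6 to 1640 ppm of the other sections, and at 1654 ppm in mouse 4, just above them. The sum in mouse 4 was almost all *Ptprc*, at 1647 ppm. *Cd52* was at 7.28 ppm there, below its median of 270 ppm in the other sections, and *Cd3e* was at 0. The part that other cell types had in the values of the members was not tested, and in such bulk samples fewer cells of a type and less RNA per cell cannot be told apart.

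**Figure D2:**
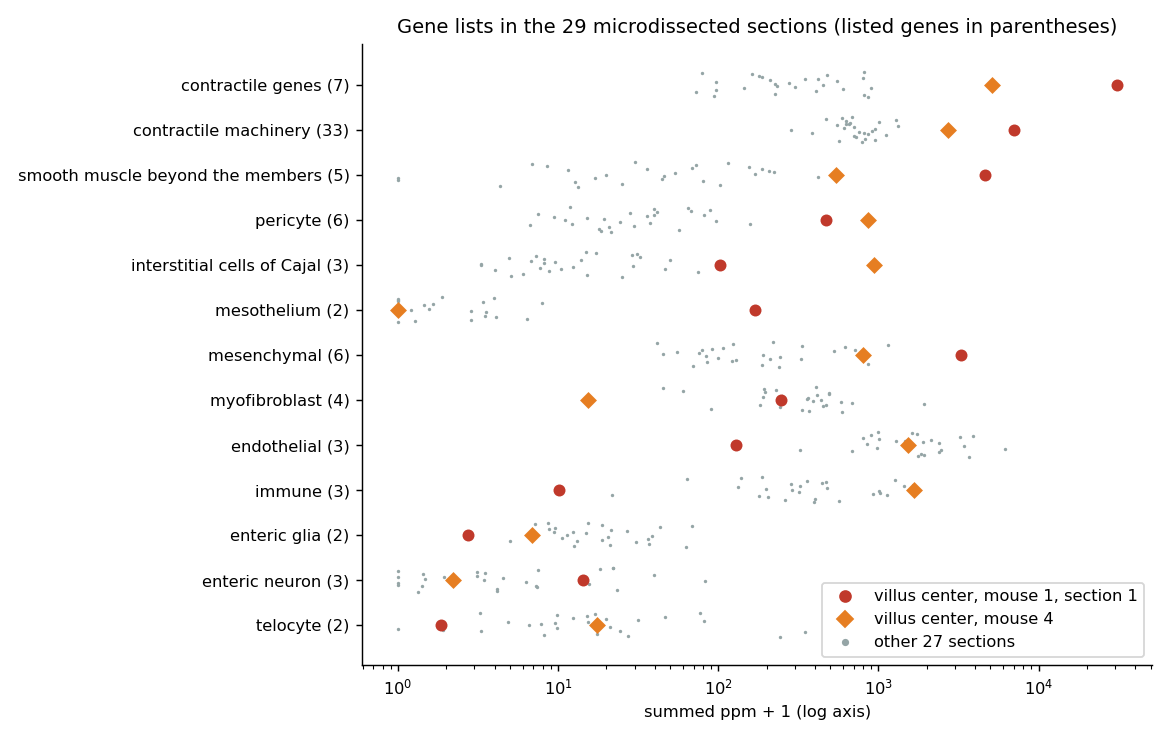
Summed level of each gene list in the 29 sections (ppm + 1 on a log axis, number of measured genes in parentheses), with the 2 sections of the villus center marked. The lists of contractile genes, contractile machinery, other smooth muscle, pericyte and interstitial cell of Cajal markers were higher in both marked sections than in any other section, the mesothelial and mesenchymal lists in section 1 of mouse 1, and the immune list in mouse 4. In mouse 4 the immune sum was almost all *Ptprc* and the pericyte sum almost all *Rgs5*. In section 1 of mouse 1 *Etv1* was the only marker of interstitial cells of Cajal above the other sections.

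Along the axis the median over mice was highest in the crypt for 6 of the 7 measured members, and for *Tpm2* it was highest in the villus center. The crypt median covers mice 1 to 3, and the villus medians cover mice 1 to 5. Within mice 1 to 3, *Actg2* was higher in the bottom than in the crypt in 3 of 3 mice and *Des* in 2 of 3. For *Tagln*, *Cnn1*, *Myl9*, *Tpm2* and *Mylk* this held in 1 of 3. Exact zeros have to be read with care, since 2 of 6 genes used by every cell (*Hprt*, *Polr2a*) were also listed at 0 in 2 sections each. *Tagln* had no zero, whereas *Actg2* was listed at 0 in 11 sections, *Cnn1* in 7, *Tpm2* in 6, *Myl9* and *Des* in 5 each and *Mylk* in 1. In the 27 sections without the 2 set apart, the median level was 93.0 ppm for *Tagln*, 48.5 for *Myl9*, 40.4 for *Mylk*, 11.1 for *Tpm2*, 4.77 for *Actg2*, 4.01 for *Cnn1* and 3.22 for *Des*.

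*Myl9*, the regulatory light chain that the kinase acts on, had the smallest unadjusted p between zones of all members, as given after the values. In the crypt the values of mice 1 to 3 were 261, 37.5 and 155 ppm. In the villus bottom mice 1 to 5 had 87.4, 212, 72.3, 64.1 and 228 ppm, and in the villus tip 28.3, 0, 45.3, 3.59 and 0 ppm. Every tip value thus lay below every bottom value, as it did for 0.791% of the 13535 genes tested and for no other member, and each tip value lay below the crypt value of the same mouse in 3 of 3 mice. In the villus center the 5 mice had 6181, 8.61, 0, 1364 and 62.1 ppm, a range that spans those of the other zones because of mice 1 and 4.

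*Mylk*, the kinase itself, was above 0 in all 18 values of mouse and zone. The crypt values were 59.9, 154 and 57.5 ppm, those of the villus bottom 44.6, 26.0, 63.4, 20.7 and 23.8 ppm, and those of the tip 30.8, 64.0, 39.6, 44.8 and 53.3 ppm. The tip was below the crypt in 3 of 3 mice and above the bottom in 3 of 5. The center had 538 and 547 ppm in mice 1 and 4, and 10.5, 36.9 and 30.3 ppm in mice 2, 3 and 5. In the single cells *Mylk* was also detected in 25.7% of cells with at least 2 epithelial markers. It was not among the enterocyte genes removed from the LCM values. The part that epithelium had in these *Mylk* values was not tested.

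Among the proteins that bind actin, *Tagln* had 159, 330 and 245 ppm in the crypt and 192, 158, 119, 93.0 and 90.2 ppm in the villus bottom. Its tip values were 64.3, 320, 89.3, 2.18 and 1.79 ppm, below the crypt in 3 of 3 mice and below the bottom in 4 of 5, with mouse 2 as the exception. The tip value of mouse 2 is the mean of 52.5 ppm in section 1 and 588 ppm in section 2. The center had 2285, 108, 42.8, 1025 and 134 ppm. All zones of *Tagln* overlapped with one another. *Tpm2* had 54.9, 0.754 and 114 ppm in the crypt, a median of 21.7 ppm (0 to 94.5) in the bottom and of 15.0 ppm (1.08 to 23.2) in the tip. *Cnn1* had 30.4, 0 and 31.4 ppm in the crypt, a median of 8.32 ppm (0.687 to 16.1) in the bottom and of 8.45 ppm (0 to 19.4) in the tip. In the center the median of *Tpm2* was 141 ppm with all 5 mice and 2.07 ppm without mice 1 and 4, and that of *Cnn1* was 4.01 and 0.354 ppm.

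*Actg2*, the actin of gut smooth muscle, had 37.1, 0 and 36.4 ppm in the crypt and a median of 12.4 ppm (5.36 to 60.7) in the bottom. In the tip it had 2.22, 74.5, 0, 1.52 and 4.77 ppm, where the value of mouse 2 is the mean of 0 in section 1 and 149 ppm in section 2. In the center it was listed at 0 in mice 2, 3 and 5 and at 2608 and 62.3 ppm in mice 1 and 4. *Des*, the intermediate filament of muscle, had medians of 8.09 ppm (0.0516 to 10.5) in the crypt, 6.79 ppm (0.535 to 12.4) in the bottom and 1.15 ppm (0 to 9.92) in the tip. Its center values were 405, 7.28, 0, 162 and 3.22 ppm. For both genes the ranges of all zones overlapped.

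None of these differences passed the test across all genes. The tool was limma, the mouse was a block, and values entered as log2(ppm + 1), where changes of low genes come out too small. At an adjusted p under 0.05 limma called 0 of the 7 members and 0 of the 13535 genes tested (0%) between villus bottom and crypt, villus tip and crypt, villus tip and villus bottom, and among the 4 zones. At an unadjusted p under 0.05 limma had 369 genes between bottom and crypt, none of them a member. Between tip and crypt it had 447 genes (3.3%) and 1 member, *Myl9*, with a log2 fold change of -4.43 (95% interval -8.53 to -0.34, limma p = 0.0356, Benjamini-Hochberg adjusted p = 1.00). Between tip and bottom it had 1057 genes (7.81%) and again *Myl9*, at -4.33 (-7.74 to -0.92, limma p = 0.0159, adjusted p = 0.575). Among the 4 zones it had 910 genes (6.72%), with *Myl9* as the 1 member (limma p = 0.0479, adjusted p = 0.725). *Tagln* followed with -2.36 between tip and crypt (-5.18 to 0.45, limma p = 0.0942) and -2.18 between tip and bottom (-4.52 to 0.16, limma p = 0.0664). In mice 1 to 3 alone, which have all 4 zones, *Tagln* was at -0.93 and -0.32, and *Myl9* at -3.39 and -3.33.

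The median log2 fold change over the members was -0.10 between bottom and crypt, -0.90 between tip and crypt and -1.28 between tip and bottom, beside 0.04, -0.03 and -0.06 over all genes tested. The fold change was below 0 for 4, 7 and 6 of the 7 members. Between tip and crypt 3 of the 7 did not keep that sign throughout. *Cnn1*, at -0.03, was above 0 in 6 of 14 alternatives and *Actg2* and *Tpm2* in 1 each, and each of these 3 genes was higher in the tip in 1 of 3 mice. For *Mylk* the difference between tip and bottom was 0.46 (-1.41 to 2.32, limma adjusted p = 0.910), an interval that also holds large changes in either direction. The part that epithelium had in this difference was not tested. Without the villus center of mice 1 and 4, an alternative chosen after the data were seen, limma again called 0 genes in every comparison, and *Myl9* was at -4.28 between tip and crypt and at -4.33 between tip and bottom (limma adjusted p = 1.00 and 0.322).

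The wider contractile machinery gave the same count. Of a list of 39 genes for thin filaments, adhesion, control of myosin phosphorylation, channels and transcription factors, 33 were in the table and 30 were tested, and limma called 0 in every comparison. Its median log2 fold change was -0.15 between bottom and crypt, -0.36 between tip and crypt and -0.37 between tip and bottom. *Vim*, the intermediate filament of mesenchymal cells, had the smallest value between tip and crypt (-2.66, limma p = 0.0338, adjusted p = 1.00). *Itga8*, an integrin subunit of smooth muscle and myofibroblasts, had the smallest between tip and bottom (-2.0, limma p = 0.0271, adjusted p = 0.613), and *Myocd*, the cofactor of serum response factor in smooth muscle, the largest (0.80, limma p = 0.415).

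The members varied together over the 18 values of mouse and zone, and each of the 21 pairs less so without the 2 sections. Pearson's r on log2(ppm + 1) lay between 0.42 (*Tagln* with *Tpm2*) and 0.86 (*Actg2* with *Cnn1*). Without the villus center of mice 1 and 4, over 16 values, it lay between -0.29 (*Des* with *Mylk*) and 0.73 (*Actg2* with *Cnn1*). The 18 values share 5 mice and their libraries, so these coefficients describe the samples. The 5 genes whose pattern was most like the mean of the members were *Trnp1* (r = 0.87), *Gas1* (0.87), *G0s2* (0.86), *Ppp1r14a* (0.83) and *Clmp* (0.83). *Ppp1r14a* encodes CPI-17, an inhibitor of myosin phosphatase. Without the 2 values r was 0.35 for *Trnp1*, 0.71 for *Gas1*, 0.63 for *G0s2*, 0.35 for *Ppp1r14a* and 0.51 for *Clmp*.

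In the single cells the question was which cells carried the members. Cells were sorted mainly for the surface protein PDGFRa, and 2347 cells had 400 to 8000 unique molecular identifiers (UMIs) and at least 250 genes. Mesenchymal cells were those with a UMI for at least 2 of *Pdgfra*, *Dcn*, *Lum*, *Col1a1*, *Col1a2* and *Col3a1*. There were 325 of them, 111 from mouse A, 194 from mouse G, 13 from mouse E, 5 from mouse B and 2 from mouse H. Another 1958 cells had a UMI for none of the 6 genes, and 64 cells had exactly 1 and were placed in neither class. The median depth was 1028 UMIs in mesenchymal cells and 1428.5 in the cells with none. No 2 cells had identical counts, and 377 of the 380 well barcodes recurred on more than 1 plate, as plates share their barcode set.

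All 9 members were detected in mesenchymal cells, but each in a minority of them. *Myl9* had a UMI in 47 of 325 cells (14.5%, exact 95% binomial interval 10.8 to 18.8%) and *Acta2* in 45 (13.8%, 10.3 to 18.1%). *Mylk* was detected in 37 cells (11.4%), *Tagln* in 31 (9.54%) and *Tpm2* in 27 (8.31%). *Myh11*, a widely used marker of smooth muscle, was detected in 10 cells (3.08%, 1.49 to 5.59%), *Des* in 4, *Actg2* in 2 and *Cnn1* in 1. These intervals, like all single-cell intervals and limits here, cover counting error only.

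In the cells with none of the 6 class genes the members were rarely detected, except for *Mylk*. *Acta2* had a UMI in 46 of 1958 such cells (2.35%), *Tpm2* in 12, *Tagln* and *Actg2* in 6 each, *Myh11* and *Myl9* in 2 each, and *Cnn1* and *Des* in 0. When 3 cells are taken as the limit of a count of 0, this allows up to 0.153% of such cells with a UMI, which does not limit the share that express the gene. Per 10000 UMIs, *Acta2* was at 3.47 in mesenchymal cells and 0.126 in the others, 27.6-fold higher, *Tagln* at 1.31 and 0.0180, 72.7-fold higher, and *Tpm2* at 0.904 and 0.0359, 25.2-fold higher. Of the other cells 520 came from mice C, D and F, which had no mesenchymal cell. Without mouse A *Acta2* was at 1.36 and 0.167, 8.13-fold higher, *Tpm2* at 0.522 and 0.0489, 10.7-fold higher, and *Tagln* had 11 UMIs against 2. *Myl9* had 122 UMIs in mesenchymal cells against 2, and *Myh11* 20 against 2. *Des* had 11 UMIs against 0 and was at least 35.9-fold higher when 3 UMIs over all other cells are taken as the floor. *Actg2*, with 3 against 7 UMIs, and *Cnn1*, with 2 against 0, were too rare to compare. After each cell was thinned to 400 UMIs, *Acta2* was expected in 8.90% of mesenchymal cells and 0.651% of the others, and *Myl9* in 9.32% and 0.0650%.

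*Mylk* did not mark the mesenchymal class. It had a UMI in 404 of the 1958 other cells (20.6%, 18.9 to 22.5%) and was at 1.46 per 10000 UMIs in mesenchymal cells and 1.62 in the others. Of the other cells, 1419 had at least 2 epithelial markers, and *Mylk* was detected in 365 of these (25.7%, median depth 1816 UMIs) but in 0 of 137 cells with an immune and no epithelial marker (median depth 705 UMIs). By the same limit of 3 cells, up to 2.19% of the latter could have a UMI at that depth. At 400 UMIs per cell it was expected in 5.60% of mesenchymal and 5.68% of other cells.

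**Figure D3:**
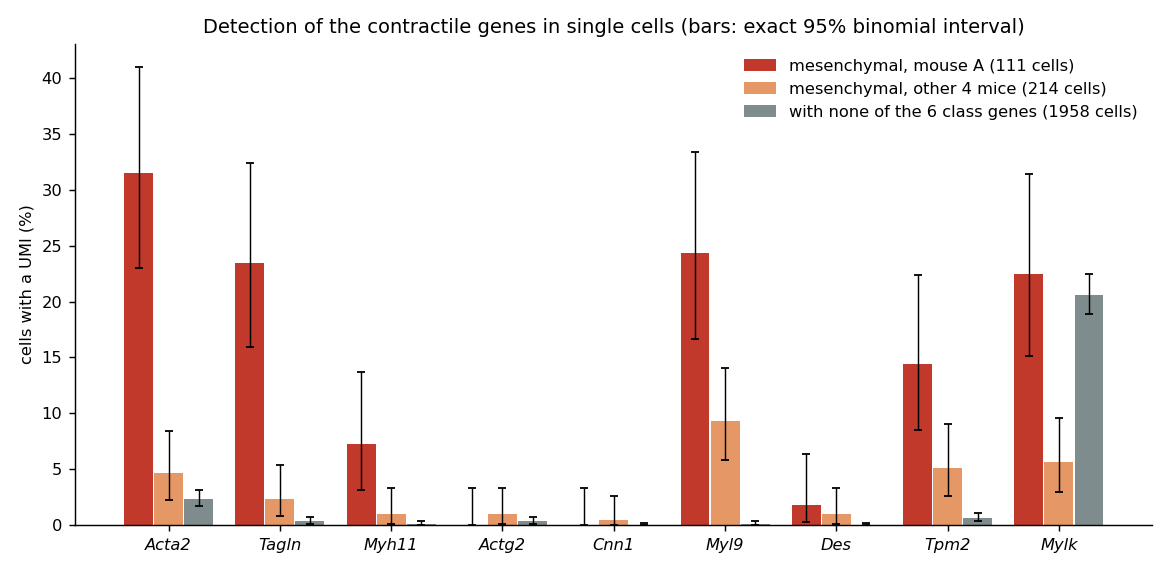
Share of cells with a UMI for each contractile gene (percent, bars) in mesenchymal cells of mouse A, in mesenchymal cells of the other 4 mice and in cells with none of the 6 class genes, with exact 95% binomial intervals as error bars. *Acta2*, *Tagln*, *Myl9* and *Tpm2* stand highest in mouse A, and *Mylk* is detected in 22.5% of the cells of mouse A and 20.6% of the cells with none of the class genes.

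The mice differed in how often the members were seen. In mouse A *Acta2* was detected in 31.5% of 111 mesenchymal cells and in the other mice together in 4.67% of 214. *Tagln* was detected in 23.4 and 2.34% of these cells, *Myl9* in 24.3 and 9.35%, *Mylk* in 22.5 and 5.61%, and *Tpm2* in 14.4 and 5.14%. The median depth was 877 UMIs per mesenchymal cell in mouse A and 1220 in mouse G. The mesenchymal cells of mouse A came through 3 gates (EpcamPdgfraDoublets, Nt5ePdgfraDoublets, PdgfraSinglets) and those of mouse G through 1 (PdgfraSinglets). Within the gate that both share, 19 of 32 cells of mouse A (59.4%) and 42 of 194 cells of mouse G (21.6%) had at least 1 member. Mice A and G were sorted on different days, so the animal, the day and the dissociation cannot be told apart.

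UMIs were summed per mouse and class and compared with edgeR in the 4 mice with at least 5 cells in each class (A, B, E, G). Of 3065 genes tested, edgeR called 254 higher (8.29%) and 705 lower in mesenchymal cells. Of the members 2 passed the filter on low counts, and 1 of these was called. *Acta2* passed the filter only through its mesenchymal sums, the class where it is high, so its call is not independent of the filter. *Acta2* was at 8.93 per 10000 UMIs in mesenchymal and 0.0555 in other cells of mouse A, at 2.51 and 0.427 in mouse B, at 2.20 and 0.250 in mouse E, and at 1.34 and 0.114 in mouse G. The value of mouse B rests on 1 UMI in 5 mesenchymal cells (exact 95% Poisson interval 0.0635 to 13.97) and that of mouse E on 2 UMIs in 13 cells (0.266 to 7.95). *Acta2* was higher in mesenchymal cells in 4 of 4 mice, with a log2 fold change of 3.82 (SE 0.94, edgeR Benjamini-Hochberg adjusted p = 3.29e-04). Without mouse A it was 2.44 and no longer passed (edgeR adjusted p = 0.152). *Mylk* was at 3.25 and 1.64 per 10000 UMIs in mouse A and at 0.779 and 1.89 in mouse G, opposite directions, had no UMI in the 5 and 13 mesenchymal cells of mice B and E, and was not called (-0.76, SE 0.84, edgeR adjusted p = 0.521).

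The other 7 members were left out by the filter on low counts. Without that filter edgeR tested 18380 genes and called 1038 higher (5.65%), among them 6 of the 9 members. These were *Myl9* (log2 fold change 7.45), *Des* (5.88), *Myh11* (5.04), *Tagln* (4.77), *Tpm2* (3.94) and *Acta2* (2.96), while *Actg2*, *Cnn1* and *Mylk* were not called. *Myl9*, *Des*, *Myh11* and *Tagln* had no UMI in the mesenchymal cells of mice B and E. *Des* had 11 UMIs in 4 cells, and 10 of the 11 *Myh11* UMIs of mouse G were in 1 cell. The version without the filter was not run without mouse A. Scaling mattered for the balance of calls, since the TMM factors moved the median of all genes to -0.42, against -0.02 without them. Without the factors 802 genes were higher and 815 lower, and *Acta2* was called under both.

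Of the contractile machinery, 14 of the 39 genes were tested, and edgeR called 5 higher, 0 lower and 9 not. *Cald1*, caldesmon on the actin filament, was 7.50 higher on the log2 scale, *Vim* 5.93, *Cnn2*, calponin 2, 4.41, *Ilk*, integrin-linked kinase, 2.73, and *Itgb1*, integrin beta 1, 2.42. Without mouse A *Cald1* and *Vim* kept their calls. *Cnn2*, *Ilk* and *Itgb1* lost theirs, at 3.80, 2.71 and 1.73 on the log2 scale over the 3 mice left (edgeR adjusted p = 0.123, 0.126 and 0.464). *Ppp1r12a*, the targeting subunit of myosin phosphatase, had the smallest fold change (-1.58, edgeR adjusted p = 0.117). The median over the list was 0.54, beside -0.42 over all genes tested.

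Of the 106 mesenchymal cells with a member, 46 had 2 or more in the same cell. Another 60 had exactly 1, and 219 of the 325 cells had none of the 9. At least 3 members were detected in 28 cells (8.62%, exact 95% binomial interval 5.80 to 12.2%), at least 4 in 15 cells and at least 5 in 5 cells. *Acta2* and *Tagln* were detected together in 22 cells, that is 48.9% of the *Acta2* cells, whereas *Tagln* was detected in 3.21% of the 280 cells without *Acta2*. *Myl9* was detected in 48.9% of the *Acta2* cells and 8.93% of those without. *Mylk* was detected in 37.8% of the *Acta2* cells and 7.14% of those without. Within mouse A these shares were 57.1 and 7.89% for *Tagln*, 54.3 and 10.5% for *Myl9*, and 42.9 and 13.2% for *Mylk*. The median depth was 850.5 UMIs in the 28 cells and 1066 in the 219 cells without a member.

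Most of these cells came from 1 mouse. Mouse A gave 25 of the 28 cells with at least 3 members (22.5% of its 111 cells, 15.1 to 31.4%), and mouse G gave the other 3 (1.55% of its 194 cells). The share over all mice was 8.62%, 1.40% without mouse A and 19.1% without mouse G. Thinned to 400 UMIs per cell, at least 3 members were expected in 4.18% of mesenchymal cells, 11% in mouse A, 0.720% in mouse G and 0% of the cells with none of the class genes. In mouse A the 25 cells came from all 3 gates, 10 of 54 cells from EpcamPdgfraDoublets, 8 of 25 from Nt5ePdgfraDoublets and 7 of 32 from PdgfraSinglets. Without the plates of the gates named Doublets, 10 of 246 cells (4.07%) had at least 3 members. Within PdgfraSinglets the share was 21.9% of 32 cells in mouse A and 1.55% of 194 in mouse G. The part that pairs of cells in 1 well had in these counts was not tested.

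One cell, from the PdgfraSinglets gate of mouse G, held all 9 members. It had 1345 UMIs, of which 70 (5.20%) were members, 29 of *Acta2*, 11 of *Myl9*, 10 of *Myh11*, 6 each of *Tagln* and *Mylk*, 3 of *Tpm2*, 2 each of *Actg2* and *Cnn1*, and 1 of *Des*. It was the 1 mesenchymal cell with *Cnn1* and held 10 of the 20 *Myh11* UMIs of the class. The other 4 cells with at least 5 members had 5 each and 0.329 to 1.06% of their UMIs on members.

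**Figure D4:**
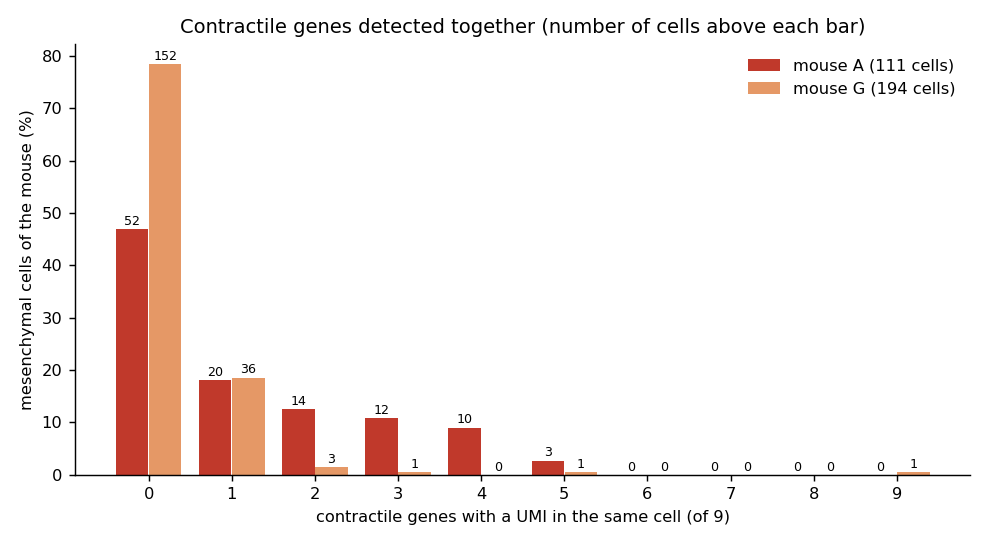
Share of the mesenchymal cells of mouse A and mouse G (percent, bars) by the number of contractile genes with a UMI in the same cell, with the number of cells above each bar. Mouse A has 25 cells with 3 or more, and mouse G has 3, among them the cell with all 9.

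The cells with at least 3 members differed from those with none in other genes too, given here as a description because the cells were grouped after their counts were read. The 5 myofibroblast markers, a list the study chose on these same cells and so no independent evidence, were at 61.5 per 10000 UMIs in the 25 such cells of mouse A and at 11.9 in the 52 cells of that mouse without a member. *Ednrb*, the endothelin receptor type B, was at 27.8 and 2.77 and was detected in 68.0 and 7.69% of these cells. *Emid1* was at 6.66 and 0.790, *Bmp5*, a bone morphogenetic protein, at 5.09 and 0.593, *Aldh1a1*, a retinaldehyde dehydrogenase, at 13.7 and 5.53, and *Pdlim1* at 8.23 and 2.17. The contractile machinery was mixed. Of its 37 genes in the table, 18 were higher and 13 lower in the cells of mouse A with at least 3 members than in those with none, and 6 had no UMI in either. *Cald1* was at 15.3 and 2.77, *Tpm1*, alpha-tropomyosin, at 12.9 and 2.77, and *Myl6*, the essential light chain of myosin, at 13.7 and 4.94, whereas *Vim* was at 9.40 and 16.4, *Pdlim7* at 0 and 3.75 and *Zyx*, zyxin of adhesion sites, at 0.783 and 3.16. The summed level of the list was 98.3 and 56.9 per 10000 UMIs.

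Of the matrix genes, *Dcn*, *Col3a1* and *Col1a1* pointed the other way in mouse A. These and *Pdgfra* are among the 6 genes that placed a cell in the mesenchymal class. Their values thus describe cells already chosen by these genes, and *Lum* and *Col1a2* of the same 6 are not given here. *Dcn*, decorin, was at 25.9 per 10000 UMIs in the cells with at least 3 members and 132 in those with none, *Col3a1* at 34.9 and 77.2, and *Col1a1* at 20.4 and 40.5. *Pdgfra*, the receptor used for the sort, was at 16.5 and 7.31. Of 5 pericyte markers 4 were higher in the cells with at least 3 members and 1, *Rgs5*, was lower. *Rgs5* was at 0.392 and 5.14. Among the higher ones *Pdgfrb* was at 2.74 and 0.198 and *Kcnj8* at 2.35 and 0.593. Each of these 3 rests on at most 7 UMIs in the cells with at least 3 members. All epithelial, immune, endothelial, enteric glial, enteric neuron and mesothelial markers were at 0 UMIs in the 28 cells of all mice. These cells held 29661 UMIs, and *Lgr5*, a receptor that marks villus tip telocytes, was at 0 there too. Such zeros cannot set the 28 cells apart, because these markers were also rare in the 219 cells without a member. Immune, enteric glial and enteric neuron markers had 0 UMIs in those 219 cells. Endothelial and mesothelial markers were detected in 2 of them each and epithelial markers in 13. The list of telocyte markers that holds *Lgr5* was detected in 6.

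**Figure D5:**
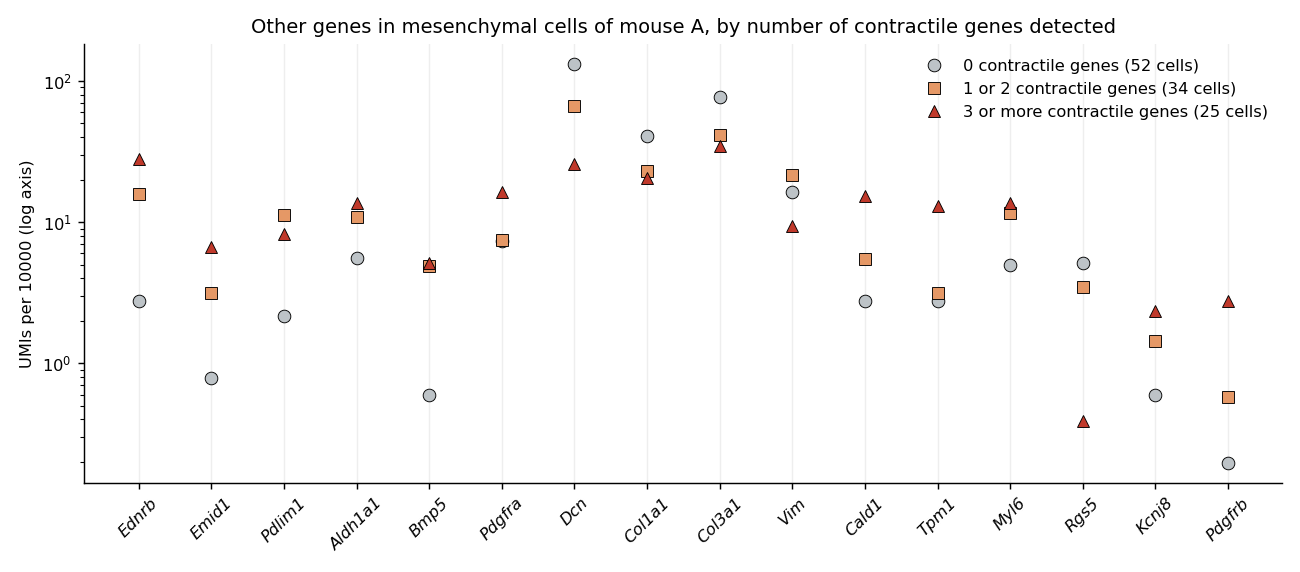
Level of 16 genes in mesenchymal cells of mouse A (UMIs per 10000, log axis) for cells with 0, with 1 or 2, and with 3 or more contractile genes. *Ednrb*, *Cald1* and *Tpm1* are highest and *Dcn* and *Rgs5* lowest in the cells with 3 or more. Of 5 pericyte markers, *Rgs5* was the 1 that was lower in them than in cells with 0.

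Among 5865 genes, those with the highest ratio between cells with at least 3 members and cells with none were mostly genes without a UMI in the latter. *Plppr3* (9 UMIs, all in 1 cell), *Bmp3* (8 UMIs in 7 cells), *Enho* (7 in 3), *Fam214a* (6 in 4), *P3h2* (4 in 2), *Tspan13* (4 in 4), *Wnt4* (4 in 4) and *Vgll4* (3 in 1) had 0 UMIs in the 219 cells without a member. With 3 UMIs over those cells as the floor, *Plppr3* was at least 26.9-fold higher and *Bmp3* at least 23.9-fold, and these bounds lie below the ratios of genes ranked after them. *Bpgm* had 9 UMIs against 1 and *Gadd45b* 7 against 1, level with *Plekha2*. *Bmp3*, a bone morphogenetic protein that opposes others of its family, was the most widely detected of these, and 6 of its 8 UMIs were in mouse A. *Ednrb* stood at 78 against 14 UMIs, a ratio of 49.96, and *Bmp5* at 16 against 3, a ratio of 47.8 that rests on few UMIs.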

How the data were processed

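LCM samples were sequenced with SMART-Seq v4, and the authors deposited TPM values per gene, which they had obtained with kallisto against coding transcripts (GRCm38). Since TPM keeps no depth, the depth behind the LCM values is unknown. Single cells were sequenced with MARS-seq and counted with zUMIs, and the deposited counts are UMIs per gene and well, not normalized. The authors subtracted a background estimated from the empty wells of each plate, and no such subtraction was made here. Of 12698 wells, 352 matched no sample and were not used. No doublet caller was applied, and plates of gates named Doublets were kept.

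From the TPM, 378 genes were removed as enterocyte genes, by the rule that the top genes of the control epithelium make up 50% of its UMIs (ribosomal and mitochondrial genes kept), and no member was among them. Before removal they took 4.97 to 44.7% of the TPM of a section. Values were then scaled as given with the LCM data and averaged per mouse and zone, and genes with a zone mean over 5 ppm were tested with limma 3.58.1 on log2(ppm + 1), with the mouse as replicate block. In R 4.3.3, the quasi-likelihood test of edgeR 4.0.16 with TMM factors, and DESeq2 1.42.0 beside it, used UMI sums of each class in each mouse. P-values were adjusted by Benjamini-Hochberg over all genes tested, and both tests were tested on simulated data. The pairing comes from the design, since zones and classes were taken from the same mice, and deviations from the group means correlated within mice by 0.09 to 0.44 for tip and bottom, -0.07 to 0.36 for tip and crypt, -0.06 to 0.33 for bottom and crypt and -0.14 to 0.10 for the single-cell classes. P-values measure how differences between zones or classes within a mouse vary from mouse to mouse. This spread also holds the noise of single sections and of small numbers of cells.

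The text names all 9 members, the called genes of the machinery list or else those with the largest and smallest fold changes, and the genes ranked most like the members. The members and lists were chosen with earlier results of these data known, and the 2 sections set apart, *Plekha2*, *Ednrb* and *Bmp5* in the ratio list and the genes of the last group comparison were singled out after values were seen. Alternatives left out each mouse, the block, the filters or the scaling, or changed the pseudocount, the class rule and the tool.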

Additional observations from a re-analysis of the deposited data

Results flagged for a closer look

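Of 21 groups of 5 mice (7 members in 3 villus zones), 6 held a mouse far from the other 4, with a gap above Dixon's limit of 0.71 of the range, where chance gives about 1 in 20 for normally distributed values. The gaps were taken on ppm, which are skewed and hold zeros, and the rate for such values was not measured. In the villus center mouse 1 was highest with 6181 ppm of *Myl9* (next 1364), 2608 ppm of *Actg2* (next 62.3) and 626 ppm of *Cnn1* (next 68.4), all through the section set apart in the report. In the villus tip mouse 2 was highest with 320 ppm of *Tagln* (next 89.3) and 74.5 ppm of *Actg2* (next 4.77), and mouse 4 with 9.92 ppm of *Des* (next 1.82). Both values of mouse 2 came mainly through section 2 of its tip, which listed 5481 genes above 0, the fewest of all sections.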

How the results depend on the processing

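With limma no member was called in any zone comparison under any of 14 alternatives, and neither *Myl9* nor *Tagln* changed the sign of its tip contrasts. Over these alternatives *Myl9* ran from -5.88 to -2.78 (tip over crypt, unadjusted p 0.0106 to 0.117) and from -5.72 to -2.68 (tip over bottom, 0.00193 to 0.123), and *Tagln* from -3.08 to -0.93 and from -2.97 to -0.32, in both nearest to 0 in mice 1 to 3 alone. Without the replicate block *Myl9* was at -4.34 and -4.33, and 0 genes were called in each of the 4 comparisons. Genes called elsewhere were no members: 1 without the filter (tip over crypt, *Tnfrsf4*), 4 in mice 1 to 3 (tip over bottom, *Igha*, *Igkc*, *Jchain*, *Apobec3*), 3 in mice 1 to 3 (any zone, *Igha*, *Igkc*, *Jchain*), and 0 to 4 with 1 mouse left out, the 4 (tip over bottom, *Igha*, *Igkc*, *Apobec3*, *Ecscr*) without mouse 4, all named after their values were seen. In single cells 959 genes were called by edgeR, 1788 with at least 3 class genes, 1486 with DESeq2, 1617 without TMM factors, 2982 without the filter, 1466 with no replicate block, and 472 (without mouse A) to 1846 (without mouse B) with 1 mouse left out. The share of higher calls was 26.5%, 49.6% without TMM factors, 45.9% with at least 3 class genes, 38.3% with no replicate block and 13.6% with DESeq2. Calls lost were *Itgb1* and *Ilk* without the filter (edgeR adjusted p = 0.217 and 0.0638) and *Cnn2* with no replicate block (0.473), beside those without mouse A. Cells with at least 3 members made up 8.62%, 4.07% without the plates of doublet gates, 4.18% when thinned to 400 UMIs, and 1.40% (without mouse A) to 19.1% (without mouse G) with 1 mouse left out. The causes were not tested, except that thinning removes UMIs. Between 5 mice only large log2 changes can pass, and zones of 3 crypt mice, single sections and a median of 1028 UMIs per mesenchymal cell limit what can be detected.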

Other observations

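The bulk epithelium of the Lgr5(GFP-ires-DTR/+) mice (4 months old, 48 h after diphtheria toxin (DT) or vehicle, 4 mice each) was used above for the enterocyte rule alone. *Mylk* was counted in all 8 of these libraries, at 56.6 to 228 UMIs per 1000000 (median 108) with DT and 78.8 to 390 (median 197) in the controls. The other 8 members stayed at or below 12.6 per 1000000, with *Tpm2* at 2.12 to 12.6 with DT and 2.96 to 12.4 in the controls.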
